A study of Mus musculus with 20 samples.

Results

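The genes that encode the NF-kB subunits in the mouse are Rel, Rela, Relb, Nfkb1 and Nfkb2. They were found in the count table by their Ensembl identifiers, 5 of the 45706 genes counted, and all 5 were above the minimum level required for testing. NF-kB transcription factors bind DNA as pairs of subunits. In resting cells the pairs are held in the cytoplasm by IkB proteins, and inflammatory signals act through the IkB kinase (IKK) to destroy the inhibitor, so that the pairs enter the nucleus and bind kB sites in the DNA. RelA, c-Rel and RelB carry a transactivation domain, whereas the products of Nfkb1 and Nfkb2 are made as long precursors that inhibit like IkB proteins and are processed to short subunits without such a domain. Several subunit genes are known targets of NF-kB itself in fibroblasts and immune cells.

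RNA was sequenced from primary fibroblasts that had been cultured from C57BL/6 mouse embryos (MEFs). All cells lacked c-Rel: the control genotype is crel-/-, and the second genotype, called the knock-in below, is crel-/-RelA-TA-KI, which carries an altered Rela allele in addition. The labels do not state what TA stands for, how the allele was built or whether it reaches every copy of Rela. Cells of either genotype were grown in 10% serum, held overnight in 0.5% serum and left unstimulated (0 h) or treated for 0.5, 1 or 3 h with interleukin 1 beta (IL-1b) at 10 ng/ml, tumour necrosis factor (TNF) at 10 ng/ml or bacterial lipopolysaccharide (LPS) at 100 ng/ml. The 20 libraries thus make up 10 conditions in each genotype with 1 library for each, so a genotype difference was tested over matched pairs of libraries and a response over genotypes and agents. Nothing in the labels describes separate cultures, so p-values rest on how far the libraries scatter, and this scatter may be technical. For the responses and the genotype difference, it also holds any response seen more in 1 genotype than in the other.

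Libraries held 9248151 to 12574135 counts. Levels are counts relative to the scaled library total, in CPM. After 3 h of LPS the factor that scales a library was 0.723 (control) and 0.732 (knock-in), and elsewhere it was at least 0.979, so those 2 libraries stood apart. All 12 fibroblast markers were present, with summed levels of 56621 to 86263 CPM. Of the macrophage markers 15 of 15 were above the minimum level and none was at 0 throughout. They summed to between 2774 and 5669 CPM in control and between 2821 and 5375 CPM in knock-in libraries, with 4319 and 3037 CPM at 3 h of LPS. Of the 15, 3 were called lower in the knock-in, as were 7.81% of all genes tested, and 0 higher. At 3 h 9 were lower with IL-1b, as were 1941 of the 14023 genes tested. With LPS 8 were lower (3962 genes) and 3 higher (29.2% of genes), and with TNF 4 were higher (18.7%). IL-1b was below TNF at 3 h for 10 (1112 genes) and LPS below TNF for 9 (3360 genes). Of the 12 fibroblast markers, 5 were higher (1120 genes) and 1 lower in the knock-in, and 8 were higher at 3 h of LPS. Their part in the results was not tested. In such mixed RNA, a change in the number of cells of a type and in RNA per cell cannot be told apart.

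The promoters of Rel and Nfkb2 held matches to the kB consensus, and that of Rela did not. The RefSeq promoter table (GRCm38.p6, the same assembly as mm10) holds windows of 300 bases, from 250 before to 50 after a transcript start, for 3 of the 5 genes: Rel, Rela and Nfkb2. The degenerate kB consensus of 10 letters was searched on both strands, with overlapping matches merged, and it occurs in 4.51% of all 32851 windows. The sequences below show the upstream stretches of Rel, of Rela for contrast, and of an internal start of Nfkb2, 5′ to 3′ on the gene's strand, with consensus matches in capitals. The match in Rel lies 92 to 82 bases before the start, and Rela has no capitals because no match was found in its window, which says nothing of other regions.
Rel upstream, chr11:23770971-23771219, minus strand: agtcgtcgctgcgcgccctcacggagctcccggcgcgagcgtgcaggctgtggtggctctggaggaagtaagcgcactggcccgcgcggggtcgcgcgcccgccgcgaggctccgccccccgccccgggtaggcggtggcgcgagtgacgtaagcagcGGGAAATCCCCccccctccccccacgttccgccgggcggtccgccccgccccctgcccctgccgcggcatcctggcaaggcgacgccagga
Rela upstream, chr19:5637291-5637482, plus strand: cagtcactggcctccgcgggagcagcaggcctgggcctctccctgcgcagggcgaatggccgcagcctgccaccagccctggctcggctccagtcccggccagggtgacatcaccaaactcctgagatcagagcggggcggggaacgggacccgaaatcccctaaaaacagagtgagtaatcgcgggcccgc
Nfkb2 internal start, upstream, chr19:46305445-46305694, plus strand: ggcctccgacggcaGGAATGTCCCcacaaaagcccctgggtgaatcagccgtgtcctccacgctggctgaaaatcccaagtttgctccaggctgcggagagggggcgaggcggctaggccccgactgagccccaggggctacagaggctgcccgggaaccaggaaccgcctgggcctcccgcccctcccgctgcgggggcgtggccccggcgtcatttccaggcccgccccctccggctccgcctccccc

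Nfkb2 had 4 different matched stretches in its 3 windows. At its outer start, 2 stretches lie 39 to 29 and 11 to 2 bases before the start. At the internal start, 1 lies 236 to 227 bases before it and 1 lies 11 to 20 bases after it. The 3 stretches not yet shown are given as short sites.
Nfkb2 outer start, first site, chr19:46304688-46304717: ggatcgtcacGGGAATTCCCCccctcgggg
Nfkb2 outer start, second site, chr19:46304716-46304745: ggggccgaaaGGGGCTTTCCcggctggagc
Nfkb2 downstream of internal start, chr19:46305695-46305724: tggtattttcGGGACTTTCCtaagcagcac
A match is a run of letters and not a measured binding site.

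All 5 genes were higher after 3 h of stimulation and most were lower in the knock-in. Averaged over agents and genotypes, Relb rose 6.72-fold at 3 h, Nfkb2 4.85-fold, Nfkb1 3.82-fold, Rela 2.36-fold and Rel 1.95-fold. Over the 10 matched pairs, the knock-in level of Relb fell by 59.5%, that of Nfkb2 fell by 44.6%, that of Rel fell by 24.7% and that of Rela fell by 22.5%. The fitted change of Nfkb1 was -37.3%, which missed the threshold. The genotypes lay close together at 0 h and apart at 3 h, a change that was not tested by itself. The test against the 0 h pair pooled all times of stimulation, and it passed for none of the 5.

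**Figure D1:**
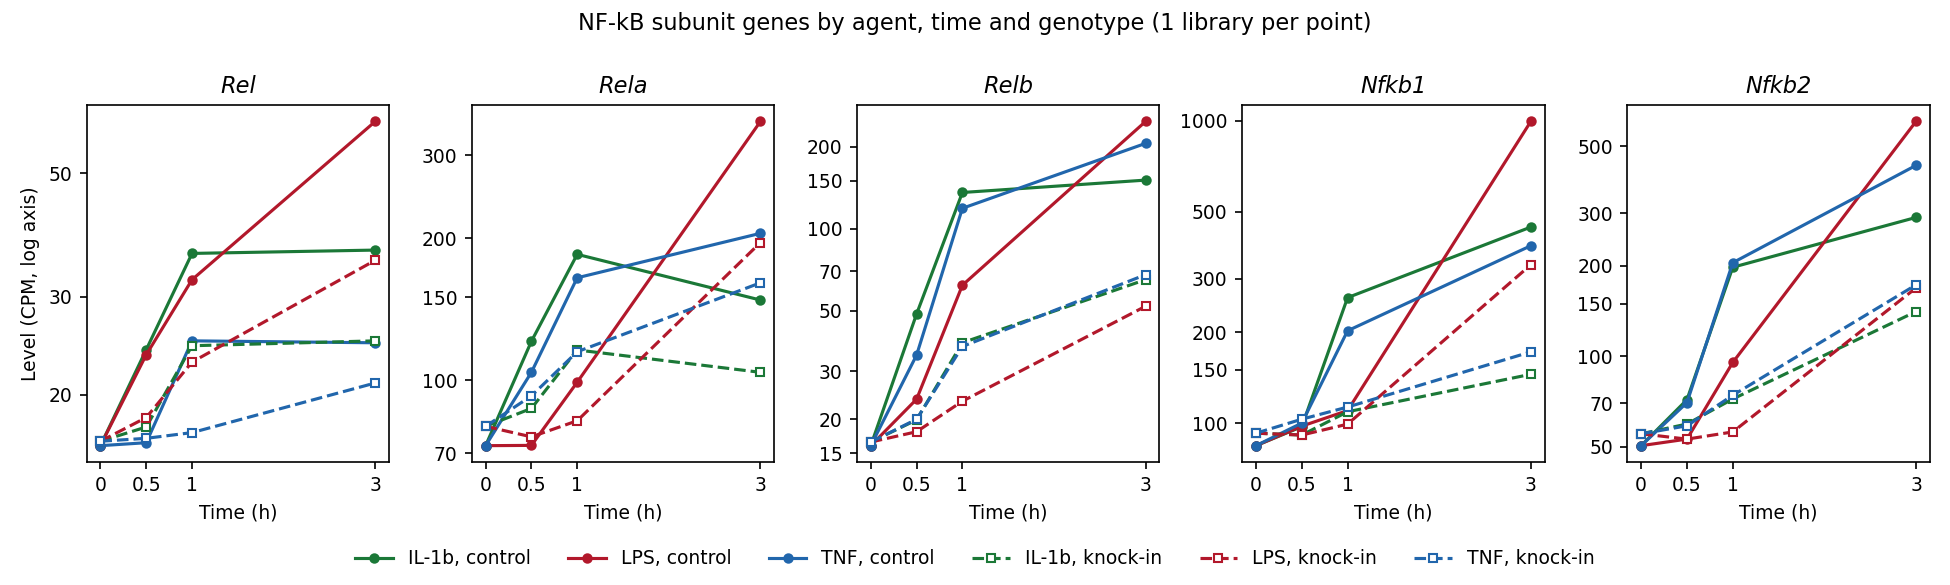
Level of each subunit gene (CPM, log axis, scale differing between panels) against time of stimulation in hours, with filled circles and solid lines for control and open squares and dashed lines for knock-in cells, and 1 library per point. With the scaling used, every gene is highest in control cells at 3 h of LPS, where Nfkb1 reached 995 CPM. The dashed lines lie below the solid lines of the same agent at 1 and 3 h.

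Rel (ENSMUSG00000020275.9, chromosome 11, 23736847 to 23770970, minus strand, mm10) encodes c-Rel, the subunit that these cells lack. Rel was nevertheless read in every library. Counts summed over the exons of the locus do not show which part was read, so they are no check of the label. In control cells Rel stood at 16.2 CPM at 0 h, at 24.1, 35.9 and 36.4 CPM after 0.5, 1 and 3 h of IL-1b, at 23.6, 32.2 and 62.0 CPM after LPS and at 16.4, 25.0 and 24.8 CPM after TNF. In knock-in cells the level was 16.5 CPM at 0 h, then 17.5, 24.5 and 25.0 CPM with IL-1b, 18.2, 22.9 and 34.9 CPM with LPS and 16.7, 17.1 and 21.0 CPM with TNF. LPS for 3 h gave the highest level in each genotype, and TNF the lowest of the 3 agents at every time. Rel was the most thinly read of the 5 along with Relb: the 0 h level in control cells rests on 201 counts, with an exact 95% Poisson interval of 174 to 231 that covers counting error only. The 0 h count in knock-in cells was 194 (168 to 223), and the 2 intervals overlap.

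Rela (ENSMUSG00000024927.7, chromosome 19, 5637483 to 5648130, plus strand) encodes RelA, the main activating subunit in fibroblasts and the gene altered in the knock-in. Control levels were 72.7 CPM at 0 h, 121, 185 and 148 CPM along the IL-1b series, 72.8, 99.1 and 354 CPM along the LPS series and 104, 165 and 205 CPM along the TNF series. Knock-in levels were 79.9 CPM at 0 h, 87.2, 116 and 104 CPM with IL-1b, 75.9, 82.1 and 196 CPM with LPS and 92.7, 115 and 161 CPM with TNF. Rela differed from the other 4 genes in having a lower level at 3 h than at 1 h of IL-1b in both genotypes, a decline with no replicate of its own. After 0.5 h the control level was 1.00 times the 0 h level with LPS and 1.67 times it with IL-1b. Rela counts cannot show which allele they came from, so they do not check the knock-in label either.

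Relb (ENSMUSG00000002983.14, chromosome 7, 19606217 to 19629438, minus strand) encodes RelB, which pairs mainly with the Nfkb2 product p52 and acts in the slower, NIK-driven branch of the pathway. From 16.0 CPM at 0 h in control cells it climbed to 48.7, 136 and 151 CPM with IL-1b, to 23.7, 62.1 and 248 CPM with LPS and to 34.4, 119 and 206 CPM with TNF. The knock-in series began at 16.5 CPM and ran through 19.9, 38.2 and 65.1 CPM with IL-1b, 18, 23.3 and 52.0 CPM with LPS and 20, 37.0 and 67.9 CPM with TNF. Relb spanned the widest range of the 5 in control cells, 15.4-fold from lowest to highest, and it was lower in the knock-in library of every stimulated pair. Its knock-in level at 3 h of LPS was 21.0% of the control level, the smallest such share among the 50 pairs of values.

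Nfkb1 (ENSMUSG00000028163.15, chromosome 3, 135584655 to 135691547, minus strand) encodes the precursor p105, which retains NF-kB pairs in the cytoplasm and gives rise to p50, the usual partner of RelA. Its control levels were 84.2 CPM at 0 h, then 97.3, 260 and 445 CPM with IL-1b, 97.7, 110 and 995 CPM with LPS and 100, 202 and 386 CPM with TNF. Its knock-in levels were 92.6 CPM at 0 h, then 91.3, 109 and 145 CPM with IL-1b, 91.3, 99.2 and 334 CPM with LPS and 103, 113 and 172 CPM with TNF. At 0.5 h the level had moved little in any of the 6 stimulated libraries, by 0.986-fold to 1.19-fold, and at 1 h of LPS it was still only 1.31-fold above 0 h in control cells. Between 1 and 3 h of LPS the control level then went from 110 to 995 CPM. The gene Gm43430, which overlaps it, had at most 16 counts in a library.

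Nfkb2 (ENSMUSG00000025225.12, chromosome 19, 46304737 to 46312090, plus strand) encodes p100, an inhibitor of RelB-containing pairs that is cut to p52. Control cells held 50.5 CPM at 0 h, 71.8, 198 and 290 CPM in the IL-1b series, 53.1, 95.5 and 605 CPM in the LPS series and 70.2, 205 and 432 CPM in the TNF series. Knock-in cells held 55.3 CPM at 0 h, 59.6, 72.2 and 141 CPM in the IL-1b series, 53.1, 56.1 and 169 CPM in the LPS series and 58.8, 74.3 and 173 CPM in the TNF series. The order of the agents at 3 h in control cells was LPS, TNF, IL-1b, and in knock-in cells it was TNF, LPS, IL-1b, with TNF and LPS close together. Both orders depend on the scaling of the LPS 3 h libraries. Relative to unscaled totals, LPS and TNF were nearly level in control cells and LPS came last in knock-in cells. Psd, a gene that overlaps it, had at most 45 counts in a library.

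The time course of the response was tested with edgeR's quasi-likelihood test on the average over agents and genotypes relative to 0 h, with Benjamini-Hochberg adjustment over 14023 genes and a threshold of 0.05. At 0.5 h none of the 5 passed, against a background of 5.43% of all genes, and none had an unadjusted p under 0.05 either; DESeq2 and limma-voom also called 0 of the 5, with 0 and 1 unadjusted. Fitted log2 changes at 0.5 h lay between 0.11 for Nfkb1 and 0.61 for Relb. Relb at 0.5 h of IL-1b was 3.03-fold in control and 1.21-fold in knock-in cells, a gap that widens the spread of this test. At 1 h 3 of the 5 had risen, where 7.12% of all genes did: Rel by a log2 change of 0.64 (SE 0.14, adjusted p = 0.0096), Rela by 0.67 (SE 0.17, adjusted p = 0.024) and Relb by 1.78 (SE 0.42, adjusted p = 0.020). The fitted values of Nfkb2, 0.92, and of Nfkb1, 0.62, had standard errors of 0.41 each and adjusted p of 0.18 and 0.36. These 1 h calls were lost without the control 0 h library, the values falling to 0.41 for Rel, 0.40 for Rela and 1.09 for Relb. That fit takes the control 0 h level from the knock-in 0 h library and the genotype difference fitted over all conditions. At 0 h itself the genotypes lay close, with Relb at 16.0 CPM in control and 16.5 CPM in knock-in cells.

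At 3 h all 5 had risen, against 25.5% of all genes. The log2 change was 2.75 for Relb (SE 0.43, adjusted p = 5.73e-04), 2.28 for Nfkb2 (SE 0.44, adjusted p = 0.0021), 1.94 for Nfkb1 (SE 0.44, adjusted p = 0.0049), 1.24 for Rela (SE 0.17, adjusted p = 1.87e-04) and 0.96 for Rel (SE 0.14, adjusted p = 1.48e-04). The median over the 5 was 1.94, beside 0.00 over all genes tested. Scaling by library totals alone moved that median of all genes to -0.31 and the share of higher genes among those called from 50.9% to 17.7%, yet all 5 members passed under it too. Without the control 0 h library, Nfkb1 no longer passed, at 1.52 and an adjusted p of 0.075. The size of the rise moved when a 0 h library was left out, where the fit fills in its level from the other genotype and the fitted genotype difference. Without the control and without the knock-in 0 h library, Relb stood at 2.05 and 3.51 and Nfkb2 at 1.78 and 2.87. All 5 passed without any LPS library, with values from 0.67 for Rel to 2.70 for Relb.

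Each agent taken alone raised all 5 at 3 h, against 16.9% of genes with IL-1b, 29.2% with LPS and 18.7% with TNF. With LPS the log2 changes were 2.85 for Relb, 2.73 for Nfkb1, 2.62 for Nfkb2, 1.79 for Rela and 1.52 for Rel, and these calls held whichever library was left out, although without the control LPS 3 h library Relb stood at 2.26 and Nfkb2 at 2.02. With IL-1b they were 2.56 for Relb, 1.88 for Nfkb2, 1.56 for Nfkb1, 0.88 for Rel and 0.68 for Rela. With TNF they were 2.83 for Relb, 2.33 for Nfkb2, 1.52 for Nfkb1, 1.24 for Rela and 0.48 for Rel. The smallest of these, Rel after TNF, lay at the threshold (adjusted p = 0.046) and was lost in 13 of 20 fits that left out 1 library, with adjusted p up to 0.43. Without the control 0 h library only 2 of the 5 passed for IL-1b (Rel and Relb) and 2 for TNF (Rela and Relb). Leaving out the control IL-1b 3 h library likewise left 2 for IL-1b, and leaving out either TNF 3 h library left 3 for TNF. Without the control or the knock-in 0 h library, Relb ranged from 1.87 to 3.33 with IL-1b, from 2.15 to 3.60 with LPS and from 2.13 to 3.59 with TNF, and Nfkb2 reached 2.47, 3.21 and 2.92.

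The agents were compared with each other at 3 h, and with edgeR they differed for Rel and Rela. LPS exceeded TNF for Rel by 1.05 (SE 0.17, adjusted p = 1.46e-04) and for Rela by 0.56 (SE 0.20, adjusted p = 0.034), 2 of 5 members against 24.3% of genes. LPS exceeded IL-1b for Rela by 1.11 (SE 0.20, adjusted p = 7.27e-04) and for Rel by 0.64 (SE 0.16, adjusted p = 0.0051), 2 of 5 against 23.8%. For Nfkb1 the LPS excess was fitted at 1.21 over TNF and 1.17 over IL-1b, with adjusted p of 0.059 and 0.066. DESeq2 (0.026 and 0.032) and limma-voom (0.024 and 0.023) called both, which makes 3 of 5 members for each comparison. Relb did not differ detectably with both genotypes pooled: LPS minus TNF was 0.02 (SE 0.42) and LPS minus IL-1b was 0.29 (SE 0.42). The genotypes went opposite ways here. With LPS, TNF and IL-1b the Relb level was 248, 206 and 151 CPM in control and 52.0, 67.9 and 65.1 CPM in knock-in cells. Between IL-1b and TNF 0 of 5 passed, against 15.8% of genes; 2 had an unadjusted p under 0.05, Rel and Rela, and DESeq2 called 1 of the 5, limma-voom 0. These comparisons lean on the scaling of the LPS 3 h libraries: by library totals the LPS excess was 0.09 over TNF for Rela and 0.20 over IL-1b for Rel, neither of which passed. They lean on single libraries too. Rela's excess over TNF was lost without the control LPS 3 h library (0.28) or without either TNF 3 h library, and Rel's excess over IL-1b without the control LPS 3 h library (0.39).

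The order in time also differed between agents, as described by the control libraries at 1 h. IL-1b had taken Relb to 8.49-fold, Nfkb2 to 3.91-fold and Nfkb1 to 3.09-fold of their 0 h level by then, and TNF to 7.41-fold, 4.06-fold and 2.40-fold. LPS had taken the same 3 genes to 3.87-fold, 1.89-fold and 1.31-fold. At 3 h, under the scaling used, the LPS library held the highest level of all 5 genes, 15.4-fold for Relb, 12.0-fold for Nfkb2, 11.8-fold for Nfkb1, 4.87-fold for Rela and 3.83-fold for Rel. For Relb and Nfkb2 this lead depends on the scaling factor of 0.723 for that library. Relative to unscaled totals Relb was higher with TNF, at 2406 of 11511573 counts against 1709 of 9550464 with LPS. Nfkb2 was nearly level, at 5048 counts with TNF and 4176 with LPS. With 1 library per point the change in the order of agents from 1 to 3 h is described and not tested.

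**Figure D2:**
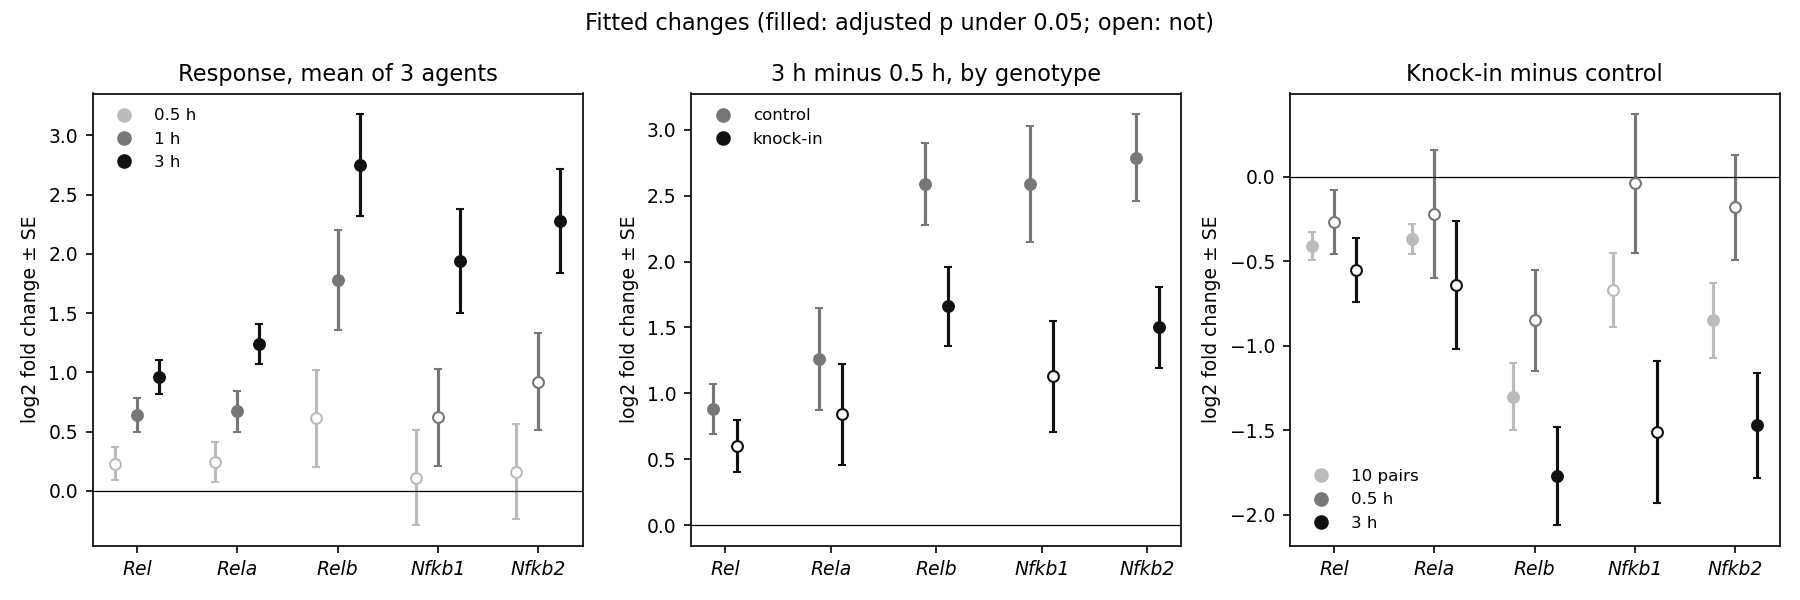
Fitted log2 fold change with its standard error (bars) for each subunit gene: left, response to stimulation at 0.5, 1 and 3 h; middle, change from 0.5 to 3 h in each genotype; right, knock-in minus control over 10 pairs, at 0.5 h and at 3 h. Filled points have an adjusted p under 0.05; Relb lies farthest from 0 in the left and right panels, at 2.75 for the response at 3 h and -1.77 for the genotype difference at 3 h.

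The genotype difference was tested over the 10 matched pairs, and 4 of the 5 were lower in the knock-in, against 7.81% of all genes. Relb had a log2 difference of -1.30 (SE 0.20, adjusted p = 0.0019) and was lower in 9 of 10 pairs. That of Nfkb2 was -0.85 (SE 0.22, adjusted p = 0.024), that of Rel -0.41 (SE 0.08, adjusted p = 0.0023) and that of Rela -0.37 (SE 0.09, adjusted p = 0.016), each lower in 8 of 10 pairs. Nfkb1 was lower in 8 of 10 pairs as well, with a fitted value of -0.67 (SE 0.22, adjusted p = 0.067). How many of all genes were lower in as many pairs was not counted. DESeq2 and limma-voom called Nfkb1 (adjusted p of 0.019 and 0.015), as did edgeR without either 0 h library (0.049). The call of Nfkb2 was lost, with adjusted p of at most 0.059, when any of 7 libraries was left out: control IL-1b 1 h, TNF 1 h or TNF 3 h, or knock-in IL-1b 1 h, IL-1b 3 h, TNF 1 h or TNF 3 h. An exact two-sided paired permutation test of the log2 CPM, which flips signs over the 10 pairs and can give no p below 0.0020, gave 0.0039 for Relb, 0.0078 for Rel and for Nfkb2, 0.0098 for Rela and 0.018 for Nfkb1.

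**Figure D3:**
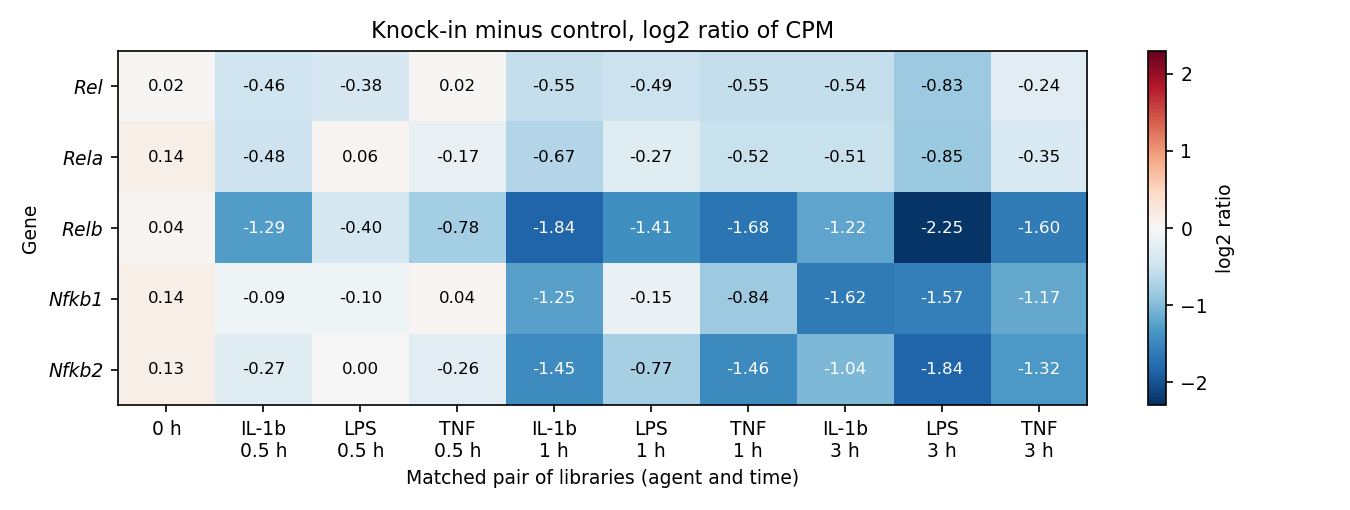
Log2 ratio of the knock-in to the control level (CPM) for each subunit gene (rows) in each matched pair of libraries (columns, by agent and time in hours), blue for lower in the knock-in. The 0 h column lies between 0.02 and 0.14, and the deepest value is -2.25 for Relb at 3 h of LPS.

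Pair by pair, the genotypes were close at 0 h and further apart in the later pairs. At 0 h the knock-in level was 102% of control for Rel, 103% for Relb and 110% for Rela, Nfkb1 and Nfkb2. At 0.5 h only Relb was lower in all 3 pairs, at 40.9% of control with IL-1b, 58.1% with TNF and 75.7% with LPS. At 1 h and at 3 h all 5 genes were lower in the knock-in in all 3 pairs. The share of all genes with such a direction was not counted. Shares at 3 h ran from 21.0% to 42.9% for Relb, from 28.0% to 48.7% for Nfkb2, from 32.6% to 44.5% for Nfkb1, from 55.4% to 78.5% for Rela and from 56.3% to 84.9% for Rel. Relb and the precursor genes thus lay below 50% of control in every 3 h pair and Rela and Rel above 50% in each.

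Whether the genotype difference of stimulated cells exceeds that at 0 h was tested with 9 stimulated pairs against the single 0 h pair. The fitted excess was -1.46 for Relb (SE 0.58), -1.09 for Nfkb2 (SE 0.66), -0.90 for Nfkb1 (SE 0.69), -0.56 for Rela (SE 0.25) and -0.47 for Rel (SE 0.24). With edgeR 0 of 5 passed, every adjusted p being 1.0, against a background of 0% of genes called in this comparison. Of the members only Relb had an unadjusted p under 0.05 (0.032), and DESeq2 and limma-voom called 0 of 5 with 2 unadjusted each. Over all genes DESeq2 called 6, none of them a member.

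By time, within the 18 stimulated libraries, the genotype difference at 3 h passed for 2 of 5 members against 2.44% of genes called lower. Relb was lower by -1.77 (SE 0.29, adjusted p = 0.0075) and Nfkb2 by -1.47 (SE 0.31, adjusted p = 0.024). Nfkb1 was as far apart in the fit, at -1.51 (SE 0.42, adjusted p = 0.083), while Rela at -0.64 and Rel at -0.55 had adjusted p of 0.49 and 0.16. DESeq2 called Nfkb1 too (adjusted p = 0.0057), as did edgeR with scaling by library totals (0.022) or without the LPS libraries, at -1.39 (4.52e-05). At 0.5 h none of the 5 passed with edgeR, against 0.585% of genes, with Relb at -0.85 (adjusted p = 0.49); Relb alone had an unadjusted p under 0.05, and DESeq2 and limma-voom called 0 of 5. The call of Nfkb2 at 3 h was lost without the control TNF 3 h library (adjusted p = 0.052), the knock-in IL-1b 3 h library (0.12) or the knock-in TNF 3 h library (0.11). Without the control LPS 3 h library, the fitted value of Rela was 0.03.

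Knock-in cells still induced Relb and Nfkb2. From 0.5 to 3 h in control cells all 5 rose, against 14.2% of genes, on the log2 scale Nfkb2 by 2.79, Relb and Nfkb1 by 2.59 each, Rela by 1.26 and Rel by 0.88. In knock-in cells 2 of 5 rose, against 5.29% of genes: Relb 3.17-fold (SE of the log2 change 0.30, adjusted p = 0.011) and Nfkb2 2.82-fold (SE 0.31, adjusted p = 0.018). The log2 changes in knock-in cells of Nfkb1, 1.13, of Rela, 0.84, and of Rel, 0.60, had adjusted p of 0.11, 0.18 and 0.076. DESeq2 also called Nfkb1 (0.036) and Rel (0.043), as did edgeR without the LPS libraries (0.0038 and 0.044), while limma-voom called 2 of 5. The difference between the genotypes in this rise was fitted at -1.46 for Nfkb1, -1.29 for Nfkb2, -0.92 for Relb, -0.43 for Rela and -0.28 for Rel. None of the 5 passed, against 0.0642% of genes; by edgeR and by DESeq2 3 had an unadjusted p under 0.05, Nfkb2, Nfkb1 and Relb by edgeR, and DESeq2 and limma-voom called 0 of 5. Without the LPS libraries Nfkb1 passed, at -1.36 (adjusted p = 0.0038).

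These late changes moved with single libraries. Rela's rise in control cells was called with an adjusted p of 0.036 and lost in 10 of the 18 fits that left out 1 stimulated library. It fell to 0.61 without the control LPS 3 h library, where Nfkb1 fell to 1.88 and was still called. Rel's rise in control cells was lost without the control LPS 0.5 h library (adjusted p = 0.055). In knock-in cells neither Relb nor Nfkb2 passed without the knock-in LPS 0.5 h, TNF 0.5 h or TNF 3 h library, with adjusted p of 0.050 to 0.074 for Relb and 0.076 to 0.099 for Nfkb2, while the fitted values were 1.61 to 1.79 for Relb and at least 1.46 for Nfkb2. Nfkb2 was also lost without the knock-in IL-1b 0.5 h (0.057) or LPS 3 h (0.069) library. Without the control LPS 3 h library all 5 passed in knock-in cells.

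The part of the control rise that knock-in cells kept was described as their gain in CPM over 0 h in percent of the control gain, where control cells had risen by more than 1.5-fold. For Relb it was 18%, 14.9% and 20% at 1 h with IL-1b, LPS and TNF and 35.9%, 15.4% and 27.1% at 3 h. For Nfkb2 it was 11.5%, 1.69% and 12.3% at 1 h and 35.8%, 20.6% and 30.9% at 3 h. For Nfkb1 it was 9.37% with IL-1b and 17.3% with TNF at 1 h and 14.6%, 26.5% and 26.2% at 3 h. The share was thus higher at 3 h than at 1 h for these genes under each agent with both values, although barely for Relb with LPS. Rela kept 32.6% with IL-1b and 38.0% with TNF at 1 h, and 31.4%, 41.3% and 61.2% at 3 h. Rel kept 41.1%, 40.4% and 7.50% at 1 h and 42.5%, 40.2% and 53.4% at 3 h. Rela with IL-1b and Rel with LPS thus had no higher share at 3 h. At 3 h both were highest with TNF, but for Rel the control rise there was only 1.53-fold. Its knock-in count was 219 (191 to 250) beside 194 (168 to 223) at 0 h, and these intervals overlap.

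To compare the genes with one another, levels were divided by the length of each gene's longest principal coding transcript in GENCODE M21 (in bases, 7466 for Rel, 2716 for Rela, 2209 for Relb, 4117 for Nfkb1 and 3141 for Nfkb2), which gives CPM per kilobase. At 0 h the order from highest to lowest was Rela, Nfkb1, Nfkb2, Relb and Rel in both genotypes. Rela made up 36.8% of the summed level in control cells, Nfkb1 28.1%, Nfkb2 22.1%, Relb 9.99% and Rel 2.98%, and the knock-in shares were 37.2%, 28.4%, 22.2%, 9.41% and 2.78% in the same order. At rest the 2 genotypes thus had nearly the same make-up. The summed level per kilobase in control cells went from 72.7 at 0 h to 329, 685 and 403 at 3 h of IL-1b, LPS and TNF, and in knock-in cells from 79.2 to 151, 236 and 190.

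In control cells Rela made up less of the sum at 3 h than at 0 h. Rela's share at 3 h was 16.6% with IL-1b, 19.0% with LPS and 18.7% with TNF, although its own level had risen. Nfkb1 led at 3 h of IL-1b (32.9%) and of LPS (35.3%), and Nfkb2 led at 3 h of TNF (34.1%). Relb went from 0.271 times the Rela level at 0 h to 1.26, 0.860 and 1.23 times it at 3 h of IL-1b, LPS and TNF. In knock-in cells Rela kept 25.2%, 30.7% and 31.3% at 3 h, and Relb stayed below Rela, at 0.772, 0.326 and 0.519 times its level. These orders depend on the transcript length. With the merged exons of the deposited table, 12061 bases for Nfkb1 and 3885 for Relb, Nfkb2 came before Nfkb1 in every library and the Relb to Rela ratios at 3 h in control cells were 0.716, 0.489 and 0.702. The fall of Rela's share from 0 to 3 h was there with either length, from 48.3% to between 24.4% and 27.8% with merged exons. With 1 library per condition, neighbours in these orders were not tested against each other.

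**Figure D4:**
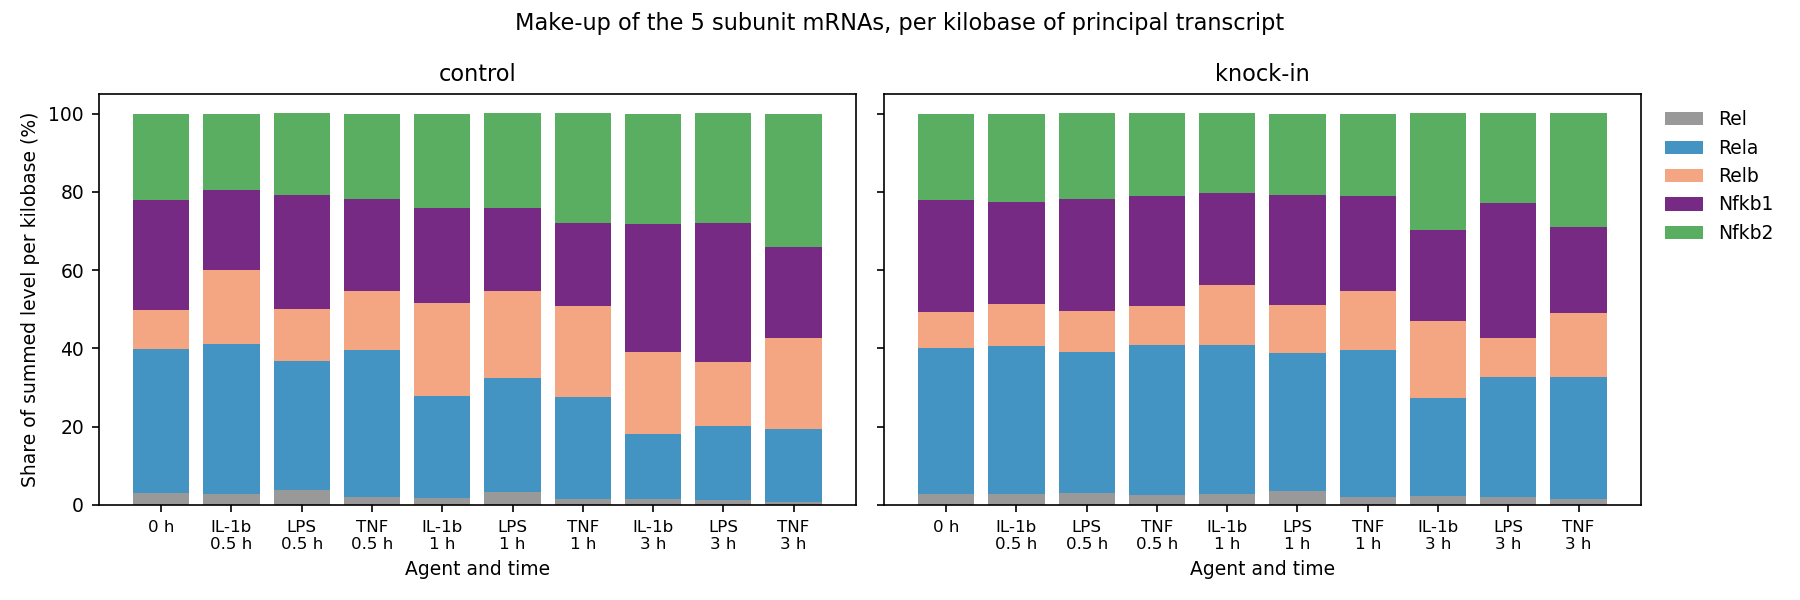
Share of each subunit gene in the summed level per kilobase of the 5 (percent, stacked to 100) in each library, control left and knock-in right, by agent and time in hours. The share of Rela narrows at 3 h, to between 16.6% and 19.0% in control and between 25.2% and 31.3% in knock-in libraries.

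Among themselves the genes followed similar courses. Over the 20 libraries Pearson's r of log2 CPM was highest for Relb with Nfkb2 (0.956) and Nfkb1 with Nfkb2 (0.954) and lowest for Rel with Rela (0.768) and Rel with Nfkb2 (0.771). Without the 2 LPS 3 h libraries the first pair stood at 0.959 and Rel with Rela at 0.561. The libraries share conditions, baseline and genotype, so these values are descriptive. By the same measure, the genes outside the family with the most similar course were Bcl3 (0.962), Cx3cl1 (0.955) and Tslp (0.947) for Relb, and Nfe2l1 (0.981), Papss2 (0.965) and Hivep1 (0.964) for Nfkb2. They were Fas (0.974), Denr (0.972) and Jdp2 (0.962) for Nfkb1, Tnfsf15 (0.957), Uap1 (0.956) and Stx11 (0.952) for Rela, and Alpk1 (0.932), Ltbp3 (0.929) and Nupr1 (0.920) for Rel. Bcl3 encodes a nuclear member of the IkB family, Cx3cl1 a chemokine, Fas a death receptor and Nfe2l1 a transcription factor of proteasome genes. Likeness here is of shape and not of size, since Nfe2l1 spanned only 345 to 737 CPM and Nfkb2 spanned 50.5 to 605 CPM. Without the 2 LPS 3 h libraries r for these 15 genes lay between 0.859 and 0.974. Their ranks then ran from 1 for Nfe2l1 to 11 for Tnfsf15, Nupr1 and Jdp2, so which genes come first leans on those libraries. Tslp was thinly read, at 0.272 to 11.7 CPM.

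The genes around the subunits in the pathway were counted by role. Of all 14023 genes tested, 7.81% were called lower in the knock-in and 25.5% higher at 3 h. In the other direction, 1120 genes were called higher in the knock-in and 3436 lower at 3 h. Of the IkB family genes, cytoplasmic and nuclear, 5 of 6 fell in the knock-in, with Nfkbie, the gene for IkB epsilon, at -3.02 and Nfkbia, the gene for IkB alpha, at -2.65. At 3 h 6 of 6 rose, Nfkbiz by 3.49 and Bcl3 by 3.34, both genes for nuclear IkB proteins and not for the cytoplasmic inhibitors. Of the kinases of the pathway, the IKK subunits and NIK, 0 of 4 passed between genotypes by edgeR, DESeq2 or limma-voom, with 0 unadjusted by edgeR, and 3 of 4 rose at 3 h, with Map3k14 (NIK) at 0.94 and Chuk (IKK alpha) at 0.69. Of 21 ubiquitin editors and adaptors, 7 fell in the knock-in, with Tnfaip3 (A20) at -3.93 and Traf1 at -1.36, and at 3 h 13 rose and 1 fell, with Traf1 at 4.58 and Tnfaip3 at 4.07. Of 17 receptors and proximal adaptors, 3 fell and 1 rose in the knock-in, with Cd40 at -1.78 and Myd88 at -0.48, and at 3 h 7 rose and 1 fell, with Cd40 at 3.78 and Cd14 at 1.91. Scaling by library totals called 1579 of all genes higher and 7360 lower at 3 h. Under it, 7 rose and 5 fell among the ubiquitin editors, 2 rose and 1 fell among the kinases, and 6 rose and 4 fell among the receptors. Without the filter 3 IkB family genes were called lower in the knock-in, among 860 genes in all. With DESeq2 6 receptors and adaptors were, among 1101 genes in all. Beside these lists, the subunit genes had a median log2 change of -0.67 between genotypes and 1.94 at 3 h, and the IkB family genes -1.23 and 3.25, on a background of 0.00 over all genes in both comparisons.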

How the data were processed

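Raw counts of reads per gene, in whole numbers, were deposited by the authors for 20 libraries of fibroblast RNA. Per the labels' protocols, libraries came from a stranded polyA kit and single-end reads. Build mm10 and the tools DESeq2, featureCounts 1.5.1, STAR and cutadapt 1.12 are named per the submitters' processing notes. How strand and multiply mapped reads were handled is not stated there, so reads of overlapping genes are uncertain. Of 45706 gene identifiers, 45143 (98.8%) matched a symbol.

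The 14023 genes that reached 1 CPM in 2 or more libraries (99.9% of counts) were tested with edgeR 4.0.16 (R 4.3.3; TMM scaling, robust quasi-likelihood fit) and Benjamini-Hochberg adjustment at 0.05. Genotype differences, responses and agent differences came from a model of 10 conditions plus genotype (9 residual degrees of freedom). The change of the genotype difference from 0 h came from that model with separate genotype terms (8), and changes by time from the 18 stimulated libraries with agent and time effects added within each genotype (8). Standard errors (SE) are the log2 fold change over the square root of F. A genotype-specific response enters the spread of the condition model. The scripts recovered known changes in simulated counts. These held a single kind of change at a time and the same dispersion for every gene, so they check the code and not how the models suit these data. Alternatives were DESeq2 1.42.0, limma-voom 3.58.1, other scalings, no filter and left-out libraries, and the merged exon length was added after seeing the data. Correlations used log2 CPM, computed with 2 as the prior count.

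The 5 members are always named. Each list names its 2 largest changes among called genes, and each member the 3 genes with the highest r. Members, lists, rules and tests were chosen with earlier results of these data known.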

Additional observations from a re-analysis of the deposited data

How the results depend on the processing

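Of the 40 called member results, the direction held in every alternative. The call held in 738 of 800 fits that left out 1 library and in 207 of 222 other fits. Among the 800 are fits of the 18 stimulated libraries in which a 0 h library was left out. These repeat the main fit and could not lose the call. Of the 40 uncalled results, 14 values passed when 1 library was left out and 17 under other alternatives. The number of members called (of 5) moved without the filter on low counts to 3 for IL-1b and 3 for TNF at 3 h, to 1 for LPS minus TNF and to 1 for the genotype difference at 3 h; with library totals to 1 for LPS minus TNF, 1 for LPS minus IL-1b and 4 for the genotype difference at 3 h; with DESeq2 to 1 for IL-1b minus TNF and 4 for the late rise in knock-in cells; and without the LPS libraries to 4 for the late rise in knock-in cells and 1 for its difference between genotypes. The cause was not tested. Leaving out 1 library gave 0 to 3 for the response at 1 h, 2 to 5 for IL-1b and for TNF at 3 h, 1 to 3 for LPS minus TNF, for LPS minus IL-1b and for the genotype difference at 3 h, 0 to 1 for IL-1b minus TNF, 3 to 5 for the late rise in control and 0 to 5 in knock-in cells. Signs changed for uncalled values. LPS minus TNF for Relb was -0.01 with limma-voom and -0.45 with library totals, for Nfkb2 -0.18 with library totals; LPS minus IL-1b for Relb was -0.16 with library totals, and IL-1b minus TNF for Nfkb1 -0.02 with limma-voom. With 1 library left out, the response at 0.5 h ranged from -0.01 to 0.46 for Rel, -0.02 to 0.54 for Rela, -0.08 to 1.38 for Relb, -0.29 to 0.61 for Nfkb1 and -0.31 to 0.77 for Nfkb2. LPS minus TNF ranged from -0.59 to 0.46 for Relb and -0.34 to 0.76 for Nfkb2, LPS minus IL-1b from -0.33 to 0.72 for Relb, and IL-1b minus TNF from -0.57 to 0.47 for Nfkb1. The late rise difference ranged from -0.45 to 0.03 for Rel and -0.86 to 0.23 for Rela, and the genotype difference from -0.47 to 0.00 for Rela and -0.16 to 0.14 for Nfkb1 at 0.5 h and from -1.06 to 0.03 for Rela at 3 h. Over all genes, library totals gave 3285 calls in place of 1938 at 1 h and lowered the share of higher genes among those called, for LPS at 3 h from 50.8% to 15.8%; DESeq2 gave 154 in place of 9 for the late rise difference and 173 in place of 82 for the genotype difference at 0.5 h; and without the filter 825 in place of 1451 genes passed for the late rise in knock-in cells. No block on replicate number was fitted, because the labels number no replicates; libraries were paired by condition, a term of the model. The smallest counts behind a member, 186 for Relb and 188 for Rel in the knock-in LPS 0.5 h library, limit their folds.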
